A study of Danio rerio with 55 samples.

Results

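The genes described here are 200 zebrafish genes whose RNA was nearly undetected in wild-type embryos at 0 and 3.3 hours post fertilization (hpf) and was high in wild-type embryos at 24 hpf. They were chosen from wild-type RNA-seq libraries by CPM, each gene's counts scaled to the library's total on genes. Of 32266 genes, 10548 had a wild-type mean under 0.1 CPM at both early stages, and the 200 with the highest wild-type mean at 24 hpf were taken. The wild-type levels are therefore a description of the choice and not a result. The study compared wild-type embryos with MZezh2 embryos, which lack Ezh2 from both the mother and the embryo, and counted RNA in libraries of both. There were 5 wild-type libraries at 0 hpf, 5 at 3.3 hpf and 6 at 24 hpf, and 6, 7 and 7 MZezh2 libraries at these stages. All embryos were whole and of a mixed TU/TLF background, and each library came from pooled embryos. MZezh2 embryos carried the ezh2 nonsense allele hu5670, with its stop codon in the SET domain, and came from crosses of females and males whose germ cells had been replaced with mutant ones. Wild-type embryos came from crosses of fish with a wild-type germline from the same transplantations, so both groups had parents with a transplanted germline. The labels do not say whether replicates came from separate parents, so that p-values measure the spread between these samples only.

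A fertilized fish egg runs on RNA that the mother loaded into the oocyte, and the embryo's own genome is switched on only around the midblastula stage. Tissue genes such as muscle, skin, blood and neuronal genes are normally transcribed later, as their cell types form. Ezh2 is the catalytic subunit of Polycomb repressive complex 2, which trimethylates lysine 27 of histone H3 and helps to keep developmental genes silent in cells that do not use them.

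By role, 100 of the 200 genes were placed in 9 groups and 100 were not placed. The groups were 25 skeletal muscle genes, 20 transcription factors and cofactors, 17 genes of plasma proteins and lipoprotein assembly, 9 extracellular matrix genes, 8 neural genes, 8 epidermal genes, 5 endothelial genes, 5 genes of hatching enzymes and cathepsins, and 3 embryonic globins. Symbols are spelled as in the gene table, where 81 of these genes have capitals. A symbol was given for 193 genes, and 37 share it with another gene identifier, among them TNNI2, PAX6, PRRX1, SLC25A1, GPM6A, CLDN5, HBE1 and SLC2A1, so that reads of close copies may have been split between them. The wild-type mean at 24 hpf ran from 1001 CPM for cyt1l (ENSDARG00000036832), a keratin of the skin, down to 23.2 CPM for CDC42EP3 (ENSDARG00000052783), with a median of 43.7 CPM. The genes just inside the limit were slco1d1 at 23.6, C1H3orf70 at 23.5 and CDC42EP3 at 23.2 CPM, and those just outside were MYBPC3 and linc.0464 at 23.0 and pvalb4 at 22.7 CPM. At the early limit, MTTP at 0.0991, tinagl1 at 0.0987 and SPR at 0.0984 CPM were just inside, whereas cmn at 0.1003, ALX4 at 0.103 and pvalb2 at 0.103 CPM were just outside. CPM was not divided by gene length. Levels of 1 gene are compared between stages and genotypes, and genes are compared as a share of their own level at 24 hpf. Where genes are ranked, summed, averaged or set against a limit in CPM, gene length is not corrected for.

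Libraries held 2736282 to 24041447 counts on genes, and 3 counts, the limit that a count of 0 allows, correspond to 0.125 to 1.1 CPM. Intervals and limits of this kind cover counting error only. At the early stages a level of 0.1 CPM thus rests on single reads, and means over libraries are used. In 6 libraries, more than 5% of the counts that could be assigned to a strand lay on the strand opposite to genes. These were MZezh2 replicate 4 at 0 hpf, MZezh2 replicates 4 and 5 at 3.3 hpf, and wild-type replicate 3 and MZezh2 replicates 3 and 4 at 24 hpf.

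The RNA of ezh2 itself divided the libraries labelled MZezh2. At 0 hpf it stood at 2.83, 4.58 and 3.83 CPM in replicates 1, 2 and 4, but at 271, 321 and 368 CPM in replicates 3, 5 and 6, within the wild-type range of 194 to 409 CPM. At 3.3 hpf it was 3.75 to 6.28 CPM in replicates 1, 2, 4 and 5 and 195 to 254 CPM in replicates 3, 6 and 7, against 228 to 497 CPM in wild-type libraries. At 24 hpf it was 37.0 to 47.5 CPM in replicates 1 to 4 and 106 to 126 CPM in replicates 5 to 7, against 106 to 218 CPM in wild-type libraries. The study describes MZezh2 embryos as free of ezh2 mRNA from mother and embryo. At 0 and 3.3 hpf, other libraries with the same label and allele held little of it. The level in the 3 high libraries of each of these stages thus goes against the study's description. At 24 hpf, all mutant libraries held 37.0 CPM or more. The 3 high ones lay below wild-type replicates 4 to 6, at 210 to 218 CPM, and near replicates 1 to 3, at 106 to 149 CPM. Why the level differed between libraries labelled MZezh2 was not tested. Main results were also computed without the 3 libraries labelled MZezh2 per stage that held at least 100 CPM of ezh2 RNA. Below, "mutant" stands for a library labelled MZezh2.

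Counts of these genes were more frequent in the mutant than in the wild-type libraries at both early stages. At 0 hpf, the summed level of the 200 genes was 6.41, 6.95, 4.07, 4.07 and 19.0 CPM in wild-type replicates 1 to 5. In mutant replicates 1 to 6 it was 28.0, 121, 73.4, 79.8, 86.6 and 105 CPM. At 3.3 hpf it was 7.51, 7.07, 9.10, 6.40 and 10.7 CPM in wild-type libraries, and its lowest, median and highest values in mutant libraries were 27.9, 72.2 and 114 CPM. No mutant library overlapped with the wild-type range at these stages, mutant replicate 1 being the lowest at both. The wild-type sums are low because the genes were chosen so, and no test was made of this difference. It was not particular to the 200 genes. The other 10348 genes under the early limits had median sums of 740 CPM in mutants against 102 CPM in wild type at 0 hpf. At 3.3 hpf these were 734 against 165 CPM.

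**Figure D1:**
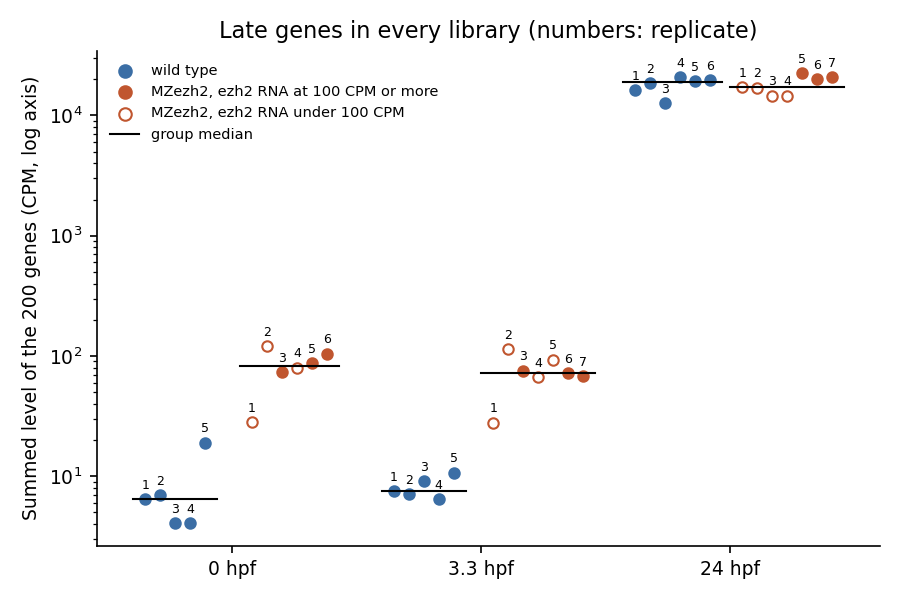
Summed level of the 200 genes in each library (CPM, log axis) by stage, with wild-type libraries in blue and libraries labelled MZezh2 in orange, open where ezh2 RNA was under 100 CPM, the replicate number above each point and a line at each group's median. At 0 and 3.3 hpf every library labelled MZezh2, from 27.9 to 121 CPM, lies above every wild-type library, whereas the groups overlap at 24 hpf.

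The early sums were above wild type in mutant libraries with and without ezh2 RNA. At 0 hpf, the 3 mutant libraries with low ezh2 RNA summed to 28.0 to 121 CPM and the 3 with ezh2 RNA of at least 100 CPM to 73.4 to 105 CPM. At 3.3 hpf the ranges were 27.9 to 114 CPM in 4 libraries and 68.2 to 75.3 CPM in 3. Both sets lay above the wild-type libraries. All of these early sums were small beside 24 hpf, when the lowest, median and highest sums were 12601, 18860 and 20870 CPM in wild-type libraries and 14614, 17116 and 22456 CPM in mutant libraries. The 24 hpf sums were 14614 to 17116 CPM in the 4 mutant libraries with ezh2 RNA under 100 CPM. In the 3 others they were 19988 to 22456 CPM. Whether the early counts came from a little RNA in all embryos of a pool or from more in a few cannot be told apart in bulk samples, nor can fewer cells of a type and less RNA per cell.

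At 0 hpf, 167 of the 200 genes (83.5%) reached a mutant mean of 0.1 CPM, and 157 (78.5%) did so at 3.3 hpf. Of the other 10348 genes under the same early wild-type limits, 17.7% and 19.0% did. A mutant mean of at least 0.5 CPM was seen for 48 and 39 genes, and of at least 1 CPM for 17 and 12, which is 8.5% and 6.0% of the 200 against 0.522% and 0.454% of the other genes. The median mutant mean was 0.276 CPM at 0 hpf and 0.211 CPM at 3.3 hpf. A count was found in every mutant library for 60 genes at 0 hpf and 57 at 3.3 hpf, and in no mutant library for 2 genes at each stage, ECRG4 and cav4b at 0 hpf and hbae1.3 and ECRG4 at 3.3 hpf. Without the mutant libraries with ezh2 RNA of at least 100 CPM, 122 and 147 genes reached 0.1 CPM.

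The share fell with the level that a gene was to reach later. Genes under the early limits were ranked by their wild-type mean at 24 hpf. At 0 hpf, a mutant mean of at least 0.1 CPM was found for 83.5% of ranks 1 to 200, 68.3% of ranks 201 to 500, 58.8% of ranks 501 to 1000, 42.7% of ranks 1001 to 2000, 27.1% of ranks 2001 to 4000 and 5.5% of the rest. At 3.3 hpf the shares were 78.5, 67.0, 61.2, 47.8, 30.2 and 5.70%. At 0 hpf the wild-type means under the limit followed the same order, with medians of 0.0382, 0.0226, 0.0149 and 0.0090 CPM in the first 4 ranges and 0 in the last 2, so the order at this stage was seen in wild-type libraries as well. At 3.3 hpf the wild-type medians fell too, though not at every step, and were 0.0377, 0.0282, 0.0332, 0.0243, 0.0180 and 0 CPM. Without the mutant libraries with ezh2 RNA of at least 100 CPM, the mutant shares ran from 61.0% of ranks 1 to 200 to 3.13% of the last range at 0 hpf, and from 73.5% to 4.05% at 3.3 hpf. Within the 200 genes, Spearman's rho across genes between the mutant mean and the wild-type mean at 24 hpf was 0.19 at 0 hpf and 0.05 at 3.3 hpf (n = 200 genes, which share libraries).

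**Figure D2:**
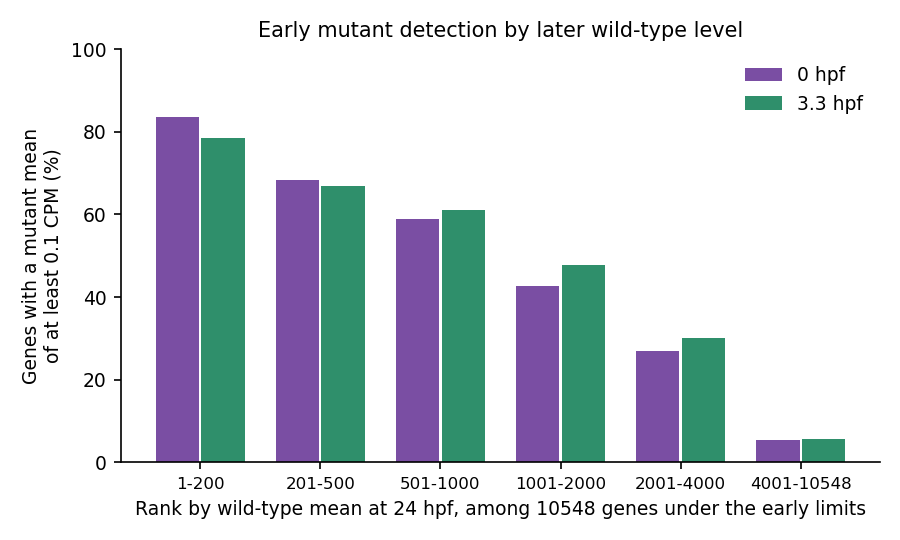
Share of genes (%) with a mutant mean of at least 0.1 CPM at 0 hpf (purple) and 3.3 hpf (green), for the 10548 genes under the early wild-type limits, by rank of the wild-type mean at 24 hpf. The share falls from 83.5% and 78.5% in ranks 1 to 200 to 5.5% and 5.70% in the last range.

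Part of the early counts lay on the opposite strand. Of all strand-assigned counts of the 200 genes, pooled over libraries, 43.9% were on the opposite strand in wild type at 0 hpf and 44.6% at 3.3 hpf. In mutants 14.2% and 17.4% were. Per library, the lowest, median and highest shares at 0 hpf were 17.9, 51.0 and 77.6% in wild type and 4.67, 19.6 and 25.5% in mutants. At 3.3 hpf they were 41.5, 44.2 and 47.5% and 3.91, 23.3 and 31.7%. Mutant replicate 2, which held the most counts of these genes, had the lowest share at both stages. At 24 hpf the share per library was 0.169 to 4.2% in wild-type and 0.210 to 6.26% in mutant libraries. In mutants, 16 genes at 0 hpf and 19 at 3.3 hpf had more than 50% of their counts there. One was EMP2 (ENSDARG00000044588), an epithelial membrane protein, with 73.7% at 0 hpf and 78.8% at 3.3 hpf, so its early mutant means of 0.757 and 0.308 CPM were mostly not RNA of its own strand. With counts of the sense strand alone, 156 and 139 of the 200 genes reached 0.1 CPM, and with the opposite-strand counts subtracted from them, 144 and 123 did.

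Transcription factors and cofactors had early mutant RNA throughout the group. Their summed level was at least 7.94 and 8.87 CPM in mutant libraries at 0 and 3.3 hpf. In wild type, where the choice of genes keeps sums low, it was at most 1.87 and 1.62 CPM. All 20 reached a mutant mean of 0.1 CPM at both stages, and 19 at 0 hpf and 20 at 3.3 hpf did so without mutant replicate 2, which moved 9 and 7 of these means by over 1.5 times. As a share of the mutant mean of the same gene at 24 hpf, their early level had a median of 1.14% at 0 hpf and 0.955% at 3.3 hpf, against 0.438% and 0.365% over the 200 genes. PRRX1 (ENSDARG00000033971), a homeobox factor of limb and head mesenchyme, was at 4.59, 4.72, 2.76, 2.19, 0.641 and 0.674 CPM in mutant replicates 1 to 6 at 0 hpf, and at 0, 0, 0, 0 and 0.149 CPM in wild-type libraries. At 3.3 hpf its lowest, median and highest mutant values were 1.37, 3.35 and 5.5 CPM, and its wild-type values were 0, 0.192, 0.0901, 0 and 0 CPM. The groups did not overlap at either stage, and the early mutant means of PRRX1 were 8.33% and 10.4% of its mutant mean at 24 hpf.

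HMGA2 (ENSDARG00000069912), a chromatin protein of the high-mobility group found in embryonic cells, was at 0.963, 1.87 and 6.53 CPM (lowest, median and highest mutant library) at 0 hpf, when wild-type replicate 1 had 0.0448 CPM and the others 0. At 3.3 hpf its mutant values were 0.849, 2.77 and 5.65 CPM and its wild-type values 0.0916, 0.144, 0, 0 and 0 CPM. PAX6 (ENSDARG00000103379), a factor of eye and brain development, was at 0.301, 0.839 and 7.01 CPM in mutants and 0, 0, 0, 0.0714 and 0.149 CPM in wild-type libraries at 0 hpf. Neither gene overlapped between genotypes at either stage, but mutant replicate 2 alone set much of the PAX6 mean, with 7.01 CPM at 0 hpf and 6.86 CPM at 3.3 hpf against at most 1.06 and 0.841 CPM in the other mutant libraries.

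The Hox genes of the group, which mark position along the body axis, were detected early in the mutants as well. HOXB9 (ENSDARG00000056023) had no count in any wild-type library at 0 hpf and 95 counts in the mutant libraries. Its mutant values were 0, 3.15, 0.772, 0.821, 0.512 and 1.16 CPM. HOXB3 (ENSDARG00000029263) was at 0.172, 0.770 and 2.46 CPM (lowest, median and highest mutant library) at 0 hpf and 0.0852, 1.27 and 2.18 CPM at 3.3 hpf. Its wild-type values were 0.0896, 0.0832, 0.185, 0 and 0.0747 CPM at 0 hpf, so the groups overlapped. The mean mutant level of HOXB8 was 0.291 and 0.345 CPM. HOXB5 had counts of 0, 8, 0, 1, 0 and 1 in mutant replicates 1 to 6 at 0 hpf, and its mean of 0.102 CPM was 0.0466 CPM without replicate 2. At 3.3 hpf its mutant mean was 0.209 CPM, while wild-type replicate 3 had 0.361 CPM from 4 counts. MYOD1, the muscle determination factor, and NEUROD1 and ascl1b, factors of neuron formation, had mutant means of 0.481, 0.134 and 0.334 CPM at 0 hpf and of 0.458, 0.187 and 0.264 CPM at 3.3 hpf. At 0 hpf, wild-type replicate 5 had 3 counts of MYOD1 and 2 of ascl1b, and wild-type replicate 1 had 1 of NEUROD1. Without mutant replicate 2, the means of MYOD1 and ascl1b at 0 hpf were 0.282 and 0.181 CPM, and that of HOXB9 was 0.652 CPM in place of 1.07 CPM.

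**Figure D3:**
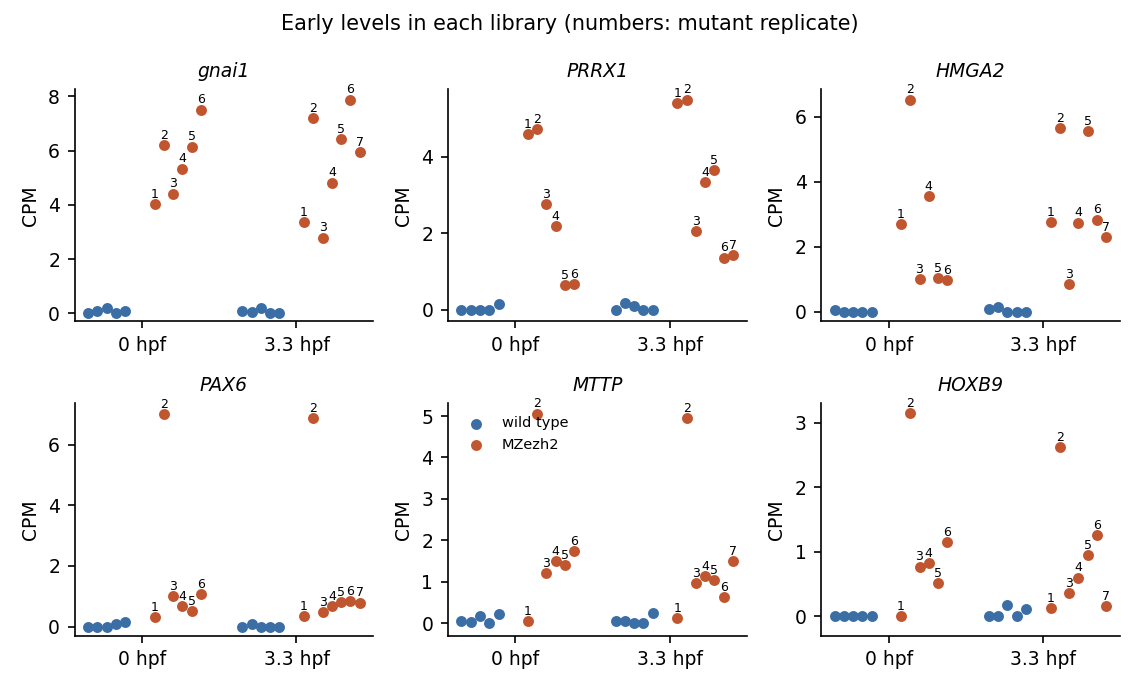
Level (CPM) of gnai1, PRRX1, HMGA2, PAX6, MTTP and HOXB9 in each library at 0 and 3.3 hpf, with wild type in blue and libraries labelled MZezh2 in orange with their replicate number. Mutant replicate 2 stands at 7.01 and 6.86 CPM for PAX6 and at 5.06 and 4.94 CPM for MTTP, above the other mutant libraries, whereas gnai1 lies between 2.79 and 7.88 CPM in all of them.

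Among the signalling and neural genes, gnai1 had the highest early mutant mean of the 200. gnai1 (ENSDARG00000021647), the alpha subunit of an inhibitory G protein, was at 4.04, 6.20, 4.41, 5.34, 6.15 and 7.51 CPM in mutant replicates 1 to 6 at 0 hpf, and at 0, 0.0832, 0.185, 0 and 0.0747 CPM in wild-type libraries. At 3.3 hpf its lowest, median and highest mutant values were 2.79, 5.94 and 7.88 CPM, with 0.180 CPM as the highest wild-type value. Every mutant library was far above every wild-type library, with 429 counts in mutants against 4 in wild type at 0 hpf. The wild-type counts were held low by the choice of genes, so no ratio is given. The early mutant means were 10.2% and 10.0% of the mutant mean at 24 hpf.

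All 8 neural genes reached a mutant mean of 0.1 CPM at both stages, with a median of 0.717% and 0.827% of their 24 hpf level. Their summed level in mutant replicate 1, 0.515 CPM at 0 hpf and 0.554 CPM at 3.3 hpf, lay within the wild-type range. The highest wild-type sums were 0.739 and 0.733 CPM, and the other mutant libraries lay above them. GPM6A (ENSDARG00000004621), a membrane glycoprotein of neurons, had mutant values of 0.172, 1.01 and 2.24 CPM (lowest, median, highest) at 0 hpf and 0.170, 1.19 and 3.68 CPM at 3.3 hpf, and 34.4% and 26.7% of its counts lay on the opposite strand. CPLX2, a regulator of synaptic vesicle release, had mutant means of 0.617 and 0.632 CPM, and wild-type replicate 3 had 2 counts of it at 0 hpf. GFAP (ENSDARG00000025301), the filament protein of glia, stood lower against its later level, with mutant means of 0.298 and 0.299 CPM, which is 0.0989% and 0.0994% of its mutant mean at 24 hpf. Wild-type replicate 5 had 3 counts of GFAP at 0 hpf and wild-type replicate 1 had 9 at 3.3 hpf. Mutant replicate 1 had 0 at both stages, so the groups overlapped. mab21l2 (ENSDARG00000015266), a gene of eye development, had no wild-type count at 0 hpf and 156 mutant counts, with 0.137, 0.826 and 5.29 CPM as its lowest, median and highest mutant values.

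The endothelial and extracellular matrix genes also all reached 0.1 CPM in mutants at both stages. Without mutant replicate 2, emilin3a at 0 hpf and clec14a at 3.3 hpf fell under it. Without the mutant libraries with ezh2 RNA of at least 100 CPM, 4 of the 5 endothelial genes reached it at 0 hpf. All 5 did at 3.3 hpf, and all 9 matrix genes at both stages. Over all mutant libraries, the median share of the 24 hpf level was 1.07% and 1.35% for the 5 endothelial genes, and 0.784% and 0.924% for the 9 matrix genes. The lowest mutant sums at 0 and 3.3 hpf were 0.687 and 0.631 CPM for endothelium, against at most 0.458 and 0.361 CPM in wild type. For matrix they were 1.37 and 1.45 CPM, against at most 0.523 and 0.601 CPM. CLDN5, a tight junction protein of blood vessels, had mutant values of 0.110, 0.621 and 2.53 CPM (lowest, median, highest) at 0 hpf and 0.105, 0.951 and 2.67 CPM at 3.3 hpf. Wild-type replicate 2 had 6 counts of it at 0 hpf, and the groups overlapped at both stages. Without mutant replicate 2 its mutant mean at 0 hpf was 0.514 CPM in place of 0.850 CPM. emilin1a, an elastic fibre protein, had mutant means of 1.21 and 0.824 CPM, and CRTAP, which takes part in collagen hydroxylation, of 0.771 and 0.595 CPM. LUM, the collagen-binding proteoglycan lumican, had no more than 0.331 CPM in a mutant library at 0 hpf, and its mutant libraries did not overlap with the wild-type ones at either stage.

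Skeletal muscle genes and genes of plasma proteins had median shares under those of the 200 genes. Their early mutant means were less far apart, with medians of 0.218 CPM for muscle and 0.219 CPM for plasma proteins at 0 hpf beside 0.276 CPM over the 200, and of 0.216 and 0.169 CPM beside 0.211 CPM at 3.3 hpf. For the 25 skeletal muscle genes the median share was 0.274% at 0 hpf and 0.271% at 3.3 hpf, and 22 and 20 of them reached 0.1 CPM. Their sum in mutant replicate 1, 1.46 and 0.980 CPM, lay within the wild-type range at both stages. The highest wild-type sums were 3.21 and 1.35 CPM, and the other mutant libraries lay above them. TNNI2 (ENSDARG00000029069), the inhibitory troponin of fast fibres, had counts in 3 of 6 and 5 of 7 mutant libraries, with means of 0.141 and 0.136 CPM. myhz1.2 (ENSDARG00000067995), a fast myosin heavy chain, had mutant means of 0.407 and 0.344 CPM with 37.5% and 35.7% on the opposite strand. Wild-type replicate 5 at 0 hpf had 3 counts of TNNI2 and 5 of myhz1.2, and both genes overlapped between genotypes there. SMPX, a small protein of the muscle cytoskeleton, stood higher, at 0.730 and 0.906 CPM, or 1.96% and 2.43% of its 24 hpf level.

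The 17 genes of plasma proteins and lipoprotein assembly had a median share of 0.232% and 0.175%, and 14 and 12 reached 0.1 CPM. MTTP (ENSDARG00000008637), which loads lipid onto lipoproteins, was at 0.0429, 5.06, 1.21, 1.51, 1.41 and 1.73 CPM in mutant replicates 1 to 6 at 0 hpf and at 0.0448, 0.0416, 0.185, 0 and 0.224 CPM in wild-type libraries. Mutant replicate 1 thus lay within the wild-type range. FGG (ENSDARG00000037281), a fibrinogen chain, had counts in 4 mutant libraries at each stage, with means of 0.290 and 0.219 CPM. Wild-type replicate 5 had 1 count of FGG at each stage, and wild-type replicate 3 had 2 at 3.3 hpf. Outside the groups, SLC25A1 (ENSDARG00000076381), the mitochondrial citrate carrier, had mutant means of 1.48 and 1.45 CPM, and USP28 (ENSDARG00000008880), a deubiquitinase, of 1.91 and 1.62 CPM.

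The epidermal, hatching and globin genes, which include the highest wild-type levels at 24 hpf, had the lowest early shares. A share is divided by the 24 hpf level, so a high level there lowers it. Median mutant means at 0 hpf were 0.246, 0.183 and 0.0765 CPM for these groups, beside 0.276 CPM over the 200. At 3.3 hpf they were 0.119, 0.0581 and 0.0515 CPM, beside 0.211 CPM. For the 8 epidermal genes the median was 0.133% at 0 hpf and 0.0429% at 3.3 hpf, and 6 and 4 reached 0.1 CPM. Their sums at 0 hpf were 0.301 and 0.763 CPM in mutant replicates 1 and 2, under the 1.27 CPM of wild-type replicate 5. At 3.3 hpf the lowest mutant sum was 0.404 CPM and the highest wild-type sum 0.369 CPM. cyt1l was at 0, 0.0954, 1.21, 0.958, 1.15 and 0.963 CPM in mutant replicates 1 to 6 at 0 hpf and at 0, 0, 0, 0 and 0.299 CPM in wild-type libraries, so the groups overlapped. For the 5 genes of hatching enzymes and cathepsins the median was 0.123% and 0.0355%, and 3 and 1 reached 0.1 CPM. Their sums at 0 hpf were 0.0429, 0, 0.552, 1.78, 0.384 and 1.73 CPM in mutant replicates 1 to 6. Wild-type sums reached 0.971 CPM, so the groups overlapped. They did so at 3.3 hpf as well, with 0 CPM in mutant replicate 1 and up to 0.144 CPM in wild type. Of the globins, hbbe3 (ENSDARG00000038147) had mutant means of 0.289 and 0.318 CPM, whereas HBE1 and hbae1.3 stayed under 0.1 CPM. Globin sums overlapped between the genotypes at both stages. Mutant replicate 1 had 0.0859 CPM at 0 hpf and mutant replicate 6 had 0 CPM at 3.3 hpf, against up to 0.208 and 0.120 CPM in wild type. These shares are not tested between groups, since genes are not replicates. Without the mutant libraries with ezh2 RNA of at least 100 CPM, the median shares at 0 hpf were 1.24% for transcription factors, 1.25% for endothelium, 0.636% for neural genes, 0.512% for matrix, 0.143% for muscle, 0.111% for plasma proteins, 0.218% for globins, 0.0723% for epidermal genes and 0.0296% for hatching enzymes and cathepsins, beside 0.243% over the 200 genes. The globins were then above the muscle and plasma protein genes at this stage. Of the 20 transcription factors, 17 reached 0.1 CPM at 0 hpf and 20 at 3.3 hpf, and of the 25 muscle genes 12 and 17. The 0 hpf values of this check rest on mutant replicates 1, 2 and 4. Their summed levels were 8.72, 42.6 and 15.6 CPM for transcription factors and 0.687, 4.67 and 1.64 CPM for endothelium. For neural genes they were 0.515, 7.06 and 7.25 CPM. No group share is given without replicate 2.

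**Figure D4:**
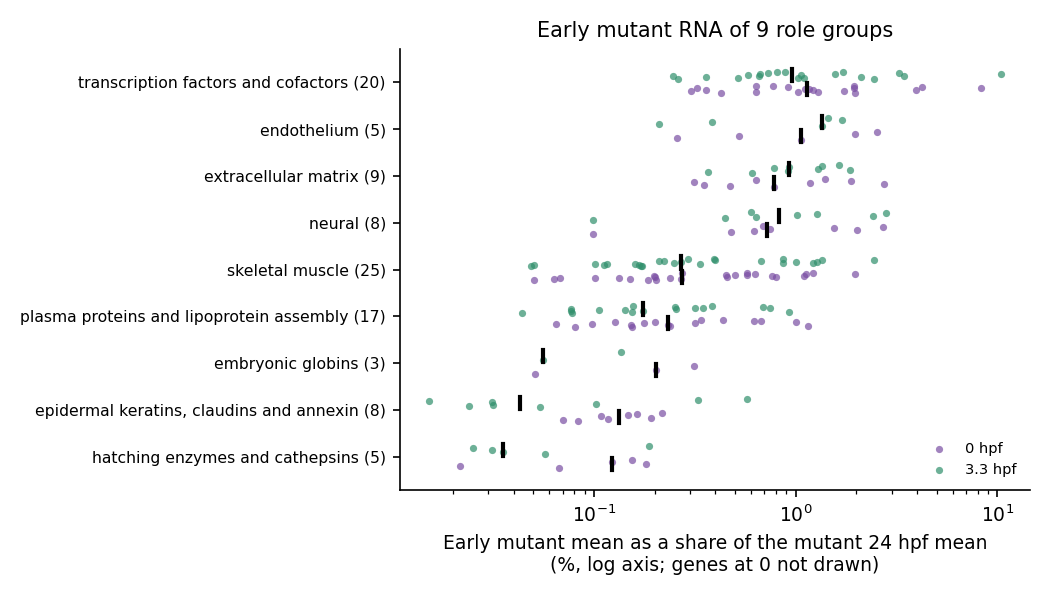
Early mutant mean of each gene as a share of its own mutant mean at 24 hpf (%, log axis) at 0 hpf (purple) and 3.3 hpf (green) for the 9 role groups, with the number of genes in parentheses and a black bar at each median. Transcription factors have medians of 1.14% and 0.955%, hatching enzymes and cathepsins of 0.123% and 0.0355%.

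The groups did not overlap, every mutant library being above every wild-type library, for 24 genes (12%) at 0 hpf and 18 (9.0%) at 3.3 hpf. Over all genes the shares were 4.14% and 3.68%. Of the other genes under the early limits they were 1.2% and 1.3%. At both stages this held for 11 genes, which is 45.8% of those at 0 hpf and 61.1% of those at 3.3 hpf. They were HMGA2, CRTAP, SLC25A1, USP28, PAX6, gnai1, SLC30A8, PRRX1, FAM168A, LUM and NEURL2. The wild-type values that chose the genes enter these counts, so nothing is read from them about the 200 genes.

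The same holds for the fit across all genes (edgeR, quasi-likelihood F test, two-sided, Benjamini-Hochberg adjustment), where called genes are those with an adjusted p under 0.05 that differ by 1 or more on the log2 scale. At 0 hpf 6.06% of the genes tested were called higher in mutants and at 3.3 hpf 5.88%. A gene of the 200 could pass the filter on low counts only through the mutant libraries, and 7 and 12 did. Called higher were MTTP, HMGA2, ZEB1, SLC25A1, USP28, gnai1 and emilin1a at 0 hpf and MTTP, HMGA2, CLDN5, SLC25A1, USP28, HOXB3, GPM6A, gnai1, SMPX and PRRX1 at 3.3 hpf, 5 of them at both stages. Called genes fell to 2 at 0 hpf and 3 at 3.3 hpf without the libraries with more than 5% on the opposite strand, and to 4 at each stage without the mutant libraries with ezh2 RNA of at least 100 CPM. Leaving out 1 library at a time gave 2 to 12 and 5 to 13 calls.

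Mutant libraries at 3.3 hpf were compared with mutant libraries at 0 hpf, a comparison that the choice of genes did not use. They were treated as unpaired, although replicates 1 and 2 each resembled their own number at the other stage. Spread between replicate numbers thus stayed in the error of these tests. Of the 200 genes, 22 passed the filter on low counts, and edgeR called 0 of them different, with 0 at an unadjusted p under 0.05. DESeq2 called 0 of 21, also with 0 at an unadjusted p under 0.05. Without the mutant libraries with ezh2 RNA of at least 100 CPM, edgeR tested 36 of the 200 genes and called 0, with 0 at an unadjusted p under 0.05. Of all 16983 genes tested, 0.459% were called higher and 0.689% lower at 3.3 hpf. The log2 fold changes ran from -0.68 for NEURL2 to 0.57 for obsl1b, with a median of 0.00 and a median SE of 0.62, so changes of 2-fold could not be seen for most of them. Over the 200 genes, 74 mutant means were higher and 125 lower at 3.3 hpf, and Spearman's rho between the mutant means of both stages was 0.84 across genes (n = 200). The wild-type means chose genes that stayed low at 3.3 hpf, and they do not enter this comparison.

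Single mutant libraries differed in which of the 200 genes they held. At 0 hpf the highest mutant value was in replicate 6 for 53 genes, in replicate 5 for 46, in replicate 2 for 39, in replicate 3 for 32, in replicate 4 for 26 and in replicate 1 for 2. Over the 200 genes, the levels at 0 and 3.3 hpf, as log2(CPM + 0.1), correlated with Pearson's r of 0.91 between the mutant replicates 2 and of 0.82 between the mutant replicates 1, and of 0.40 to 0.53 between the other same-numbered mutant libraries (n = 200 genes, which share libraries). Replicate 2 held the highest value of USP28, MTTP, PAX6, mab21l2, ces3 and HOXB9 at both stages. DLX3, a homeobox factor of skin, reached 3.2 CPM in replicate 2 at 0 hpf, while the median over mutant libraries was 0.132 CPM. Spearman's rho between the 200 levels of a library and their wild-type mean at 24 hpf was 0.42 in wild-type replicate 5, 0.35 in mutant replicate 4 and 0.27 in mutant replicate 6 at 0 hpf, 0.29 in mutant replicate 5 at 3.3 hpf, and -0.13 to 0.11 in the other early libraries (n = 200 genes each). Wild-type replicate 5 at 0 hpf, with a sum of 19.0 CPM, therefore held these genes in an order nearer to that of 24 hpf than the other wild-type libraries did.

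At 24 hpf most of the 200 genes differed little between the genotypes. All 200 were tested. HOXB9 was called higher and SLC2A1 lower, while of all 18806 genes tested 0.223% were called higher and 0.101% lower. Of the 7026 genes with a wild-type mean of at least 23.2 CPM the shares were 0.0569% and 0.0996%. The wild-type means of this comparison chose the genes, so nothing is read from the counts, and a choice by high wild-type means goes in the direction of a lower call. The median log2 fold change was -0.02 (quartiles -0.20 and 0.16), beside -0.01 (-0.16 and 0.14) over all genes tested. Without the mutant libraries with ezh2 RNA of at least 100 CPM, the median over the 200 genes was -0.15, with 127 negative and 73 positive values. With all libraries, the log2 fold change was within 0.5 of 0 for 181 genes, over 0.5 for 9 and under -0.5 for 10, that is for 4.5% and 5.0%, beside 5.79% and 4.08% of all genes tested. An adjusted p under 0.05 at any fold was found for 3 genes, HOXB9, HOXB8 and SLC2A1, and for 0.441% of all genes tested. For 167 genes the fold change with 2 SE on each side lay within 2-fold, with a median SE of 0.23.

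HOXB9 had 58.3, 59.6 and 64.9 CPM as its lowest, median and highest values in the 6 wild-type libraries and 135, 171 and 192 CPM in the 7 mutant libraries. The groups did not overlap. The log2 fold change was 1.41 ± 0.11 (SE, edgeR adjusted p = 1.8e-05), and the log2 ratio of the means was 1.5 in replicates 1 and 2 and 1.48 in replicates 3 and later. HOXB8 (36.8, 51.3 and 60.6 CPM in wild type, 78.5, 92.8 and 111 CPM in mutants) did not overlap either, with a log2 fold change of 0.86 ± 0.14 and an edgeR adjusted p of 0.010, under the fold that a call needs. Without the mutant libraries with ezh2 RNA of at least 100 CPM its log2 fold change was 0.70 (edgeR adjusted p = 0.16), and with replicates 3 and later alone 0.84 (adjusted p = 0.22). For HOXB3 and HOXB5 the log2 fold changes were 0.19 ± 0.18 and -0.27 ± 0.13, with edgeR adjusted p-values of 0.98 and 0.72. Of the 47 Hox genes tested in all, 7 were called higher and 0 lower at 24 hpf.

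SLC2A1 (ENSDARG00000001437), a glucose transporter of the cell membrane, had 36.4, 49.7 and 77.4 CPM in wild-type libraries (lowest, median, highest) and 15.3, 23.9 and 32.0 CPM in mutant libraries, with no overlap. The log2 fold change was -1.09 ± 0.19 (SE, edgeR adjusted p = 0.017). It was no longer called without wild-type replicate 3 (-0.93, adjusted p = 0.026) or without mutant replicate 1, 5 or 6 (-1.07, -0.99 and -1.05), nor without the mutant libraries with ezh2 RNA of at least 100 CPM (-1.0, adjusted p = 0.10). Leaving out each of the other libraries kept the call. In all, 4 of the 200 genes had every mutant library above every wild-type library, namely HOXB9, HOXB8, cplx2a and KCTD15, and 1 below, SLC2A1. Over all genes tested these shares were 0.649% and 0.181%.

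**Figure D5:**
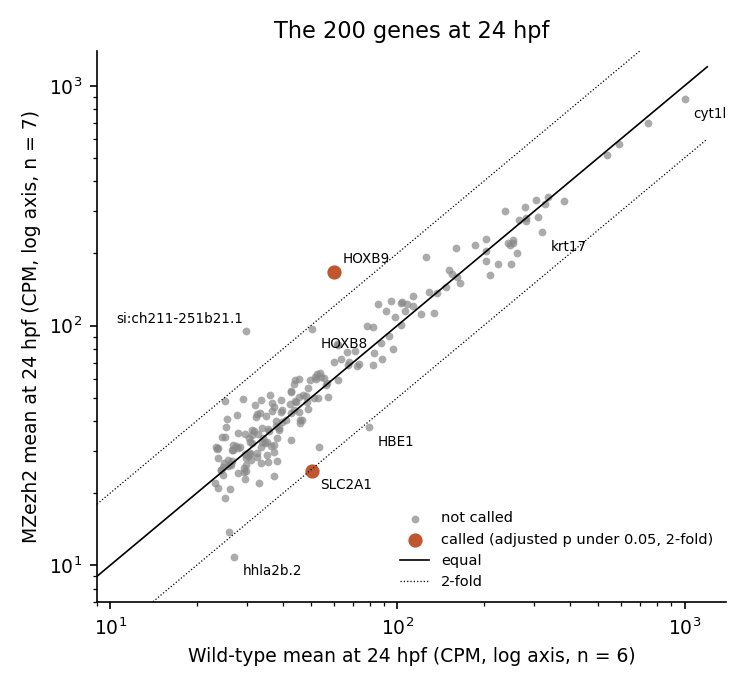
Mutant mean (n = 7) against wild-type mean (n = 6) of each of the 200 genes at 24 hpf (CPM, log axes), with a solid line at equal means, dotted lines at 2-fold and the 2 called genes in orange. Most genes lie near the line, with HOXB9 above it at 60.1 and 168 CPM and SLC2A1 below it at 50.3 and 24.8 CPM.

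The widest differences that were not called had a wide spread. si:ch211-251b21.1 had 7.61, 30.2 and 47.2 CPM in wild-type and 14.2, 74.5 and 180 CPM in mutant libraries, a log2 fold change of 1.62 ± 0.50 (edgeR adjusted p = 0.30). It passed the thresholds with DESeq2 (adjusted p = 0.042) and without the libraries with more than 5% on the opposite strand (1.76, edgeR adjusted p = 0.036). hhla2b.2 was at 1.37, 29.96 and 42.6 CPM against 0.231, 10.0 and 21.8 CPM (log2 fold change -1.39 ± 0.68), and the globin HBE1 at 19.8, 48.7 and 208 CPM against 11.0, 40.4 and 63.1 CPM (-1.21 ± 0.61). The groups overlapped for all of these genes.

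By role, no gene other than HOXB9 was called among the 100 placed genes. The median log2 fold change at 24 hpf was 0.00 for transcription factors, -0.04 for skeletal muscle, 0.18 for plasma proteins, 0.01 for extracellular matrix, -0.08 for endothelium and -0.15 for epidermal genes. It was 0.27 for the 8 neural genes, all of which had a positive value, -0.45 for the 5 hatching enzymes and cathepsins and -0.70 for the 3 globins, with negative values for all genes of these groups. Wider lists of these tissues, which share some of these genes, lay nearer to no change. Their medians were -0.18 for 17 globin and erythroid genes, -0.24 for 8 hatching gland genes, 0.13 for 50 neuronal genes and -0.09 for 26 genes of neural progenitors and glia. The mutant libraries fell into 2 sets here. The summed globin level was 224 to 421 CPM in the 4 mutant libraries with low ezh2 RNA and 855 to 1162 CPM in the 3 with at least 100 CPM of it, against 244 to 954 CPM in wild type. That of the hatching enzymes and cathepsins was 457 to 690 CPM and 1005 to 1171 CPM, against 597 to 1265 CPM in wild type. Without the 3 libraries with high ezh2 RNA, the median log2 fold change was -1.12 for globins, -0.79 for hatching enzymes and cathepsins, -0.43 for epidermal genes and -0.25 for skeletal muscle, and 0.13 for neural genes, of which 5 of 8 were then positive. In wild type, some sums also differed by replicate number. Skeletal muscle summed to 1195 to 1999 CPM in wild-type replicates 1 to 3 and 2655 to 3599 CPM in replicates 4 to 6. Wild-type sums of globins and of hatching enzymes and cathepsins overlapped between these replicates. No wild-type library was left out beside the 3 mutant ones, so genotype and library set cannot be told apart there. The part of the ezh2 level in these values was not tested. Values for cyt1l, the gene with the highest wild-type mean, were 668, 1035 and 1312 CPM in wild-type and 704, 813 and 1073 CPM in mutant libraries. For the 10 genes with the highest wild-type means among those with a symbol, cyt1l, cyt1, hbbe3, PLA2G12B, afp4, EMP2, krt17, si:dkey-26g8.5, cldni and ctslb.4, the mutant means were 878, 703, 570, 515, 332, 344, 246, 285, 334 and 272 CPM, and no edgeR adjusted p was under 0.90. Values of krt17, a skin keratin, were 104, 181 and 987 CPM (lowest, median, highest) in wild-type and 128, 136 and 520 CPM in mutant libraries, so the groups overlapped. For gnai1, PRRX1, HMGA2 and PAX6, the log2 fold changes at 24 hpf were 0.09 ± 0.15, -0.20 ± 0.21, 0.15 ± 0.26 and -0.20 ± 0.30 (SE), with edgeR adjusted p-values of 1.0. Of 23 lists of tissue genes, which hold other genes than these 200 as well, 5 had a gene called by edgeR at 24 hpf. Beside the 7 of 47 Hox genes, these included 4 of 13 genes in a list of transcription factors taken as Polycomb targets. The 4 were TBX5, SHOX, hoxa9b and GSC, with hoxa9b in both lists. That list was chosen on these samples, and the study's main text does not name SHOX. Called too was 1 of 30 epidermal genes (krt1-19d), and all of these were higher. Lower were 2 of 11 heart muscle genes, MYH6 and MYH7. The 18 lists without a call, among them 24 fast muscle genes and 50 neuronal genes tested, had median log2 fold changes from -1.34 for the lens to 0.39 for pigment cells.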

How the data were processed

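RNA-seq libraries of whole embryos depleted of ribosomal RNA were analysed. The deposited counts per gene were made by the authors with STAR (2.5.2b by the submitters' processing notes) on GRCz10 with an Ensembl annotation, and are raw counts of uniquely mapped reads in an unstranded and 2 stranded columns. For 24 hpf, the study describes another kit, another instrument and single-end reads for 2 samples of each genotype. The others were read from both ends, and the sources do not say which libraries these 2 were. The unstranded column was used, and rows that name no gene (unmapped, multimapped, no feature, ambiguous) were left out. These held 4.80 to 75.2% of reads for unmapped, 1.64 to 27.5% for multimapped and 1.77 to 28.6% for no feature. The 75.2% was in wild-type replicate 3 at 0 hpf, where 20 of the 200 genes had a count. Median unmapped shares at 0 hpf were 27.2% in wild type and 39.1% in mutants, and at 3.3 hpf 24.1% and 38.6%. CPM was taken over the counts on genes. Tests used edgeR 4.0.16 in R 4.3.3 (TMM, filterByExpr, robust quasi-likelihood F test, genotype as the only term, each stage on its own). They were tested on simulated counts, in which the changed genes had means over 1 CPM. Most early levels of the 200 genes were lower and are not covered by this. Alternatives were DESeq2 1.42.0, DESeq2 size factors, no filter, a replicate block, a batch term for replicates 1 and 2, the sense strand, other limits, and libraries left out. The alternatives on opposite-strand and ezh2 levels, the early means without mutant replicate 2 and the comparison of both early mutant stages were added after the data were seen. The 200 genes, the role groups and the 23 gene lists were chosen with earlier results of these data known. Named are the 10 genes highest at 24 hpf, called genes, the 10 highest in early mutants per stage, up to 2 per list, those at the limits, and genes of counts of 5 or fewer. Other genes given as examples of a role group, or for the size of their difference at 24 hpf, were chosen after their values were seen. ChIP-seq peaks were not joined to these genes and were not used here. Results for a few genes are not reported here.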

Additional observations from a re-analysis of the deposited data

Results flagged for a closer look

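In groups of 5 to 7 libraries, 50 sets of values were checked for a library far from the rest by Dixon's gap criterion at 95%, and 14 met it. Sets of independent, normally distributed values would meet it in about 1 of 20. Genes here share libraries, and some were named for a high early mutant mean, so 14 cannot be set against that rate. The summed level of the 200 genes was 18.97 CPM in wild-type replicate 5 at 0 hpf, against at most 6.95 CPM in the other wild-type libraries. Mutant replicate 2 was far above the other mutant libraries for 6 genes. At 0 hpf these were PAX6 at 7.01 CPM (next highest 1.06), mab21l2 at 5.29 CPM (next highest 1.07), MTTP at 5.06 CPM (next highest 1.73), USP28 at 4.72 CPM (next highest 2.02) and ces3 at 3.48 CPM (next highest 1.35). At 3.3 hpf they were PAX6 at 6.86 CPM (next highest 0.841), USP28 at 5.60 CPM (next highest 1.43), MTTP at 4.94 CPM (next highest 1.51) and GPM6A at 3.68 CPM (next highest 1.58). At 24 hpf, wild-type replicate 2 had 1805 CPM of cyt1 (next highest 811) and 987 CPM of krt17 (next highest 315), both skin keratins, wild-type replicate 1 had 64.9 CPM of HOXB9 (next highest 59.7), and wild-type replicate 3 had 77.4 CPM of SLC2A1 (next highest 51.0). What set these libraries apart was not tested.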

How the results depend on the processing

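Counts of early calls moved most. At 0 hpf, where 7 genes were called higher, there were 26 with no filter on low counts, 4 with replicates 3 and later alone, 2 without libraries over 5% on the opposite strand, 4 without mutant libraries with ezh2 RNA of at least 100 CPM, and 3 and 15 with the genes chosen again under early limits of 0.05 and 0.2 CPM. At 3.3 hpf, with 10 calls, the counts were 19 with no filter, 3 without libraries over 5% on the opposite strand, 4 without the ezh2 libraries and 5 at a limit of 0.05 CPM. Wild-type and mutant libraries of a stage were treated as unpaired, since deviations of same-numbered ones were not correlated above 0.1 in every pair. In 13 of 16 pairs they were, and 7 of 16 pairs were best matched by their own number. The r lay between 0.053 and 0.59 in embryos of 0 hpf, between 0.019 and 0.58 in those of 3.3 hpf, and between -0.014 and 0.76 in the oldest. This check did not cover pairs between stages. With a replicate block, 2 genes were called at 0 hpf and 3 at 3.3 hpf, and the counts at 24 hpf did not move. At 24 hpf, 2 genes were called higher in place of 1 with DESeq2, without libraries over 5% on the opposite strand and at a limit of 0.05 CPM, and 3 among 400 genes. Called lower were 0 with replicates 3 and later alone and without the ezh2 libraries, 2 at a limit of 0.05 CPM, 3 at 0.2 CPM and 2 among 400 genes. Genes with a mutant mean of at least 0.1 CPM numbered 167 and 157. At 0.5 CPM they were 48 and 39, at 1 CPM 17 and 12, among 100 genes 89 and 82, and among 400 genes 305 and 289. Leaving out 1 library gave 2 to 12 calls at 0 hpf and 5 to 13 at 3.3 hpf, 1 higher and 0 to 1 lower at 24 hpf, 156 to 173 and 147 to 163 genes at 0.1 CPM, a median log2 fold change of -0.08 to 0.02 at 24 hpf, and 0 calls between the mutant stages. Without the ezh2 libraries, the median log2 fold change at 24 hpf was -0.15. HOXB9 at 24 hpf was called under every alternative, with edgeR or DESeq2 adjusted p-values from 5.3e-38 to 0.0024. MTTP and SLC25A1 at 0 hpf lost their call with replicates 3 and later alone (log2 fold changes 3.37 and 4.12), and MTTP also without wild-type replicate 1, 2 or 4. Of the alternatives for single named genes, 979 kept direction and call, 11 lost a call, 6 gained one and 0 reversed. The cause of these changes was not tested. Depth limits the early stages, where 0.1 CPM is less than 3 counts in every library.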
